A study of Mus musculus with 32 samples.

Results

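The endothelial genes followed here in mouse heart atria were 10 markers of endothelial cells: Kdr, Flt1, Tek, Tie1, Eng, Robo4, Cdh5, Pecam1, Emcn and Vwf. They were taken by name from the 19938 named genes on the array, with the brightest probe set standing for a gene. The list was chosen with earlier results of these data known, so counts of members beside the share of all genes are a description. All 10 were among the 15219 genes bright enough to test, and each had 1 probe set. RNA was taken from both atria of 16 mice and hybridised to 32 Affymetrix Mouse Gene 1.0 ST arrays. The mice were 4 non-transgenic controls (Ntg), 4 Mst1 transgenic mice, 4 dnPI3K transgenic mice and 4 mice with both transgenes (dnPI3K-Mst1). All 4 genotypes shared a combined C57BL/6 and FVB/N background and a chow diet, and the labels give no age. The labels do not name the promoter of either transgene. As background, published lines of both express the transgene in cardiac myocytes from the alpha myosin heavy chain promoter, so the endothelial cells of such hearts would not themselves carry the expressed transgene.

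Endothelial cells line the vessels and chambers of the heart and make up much of the non-muscle part of its wall. Their growth and survival depend on vascular endothelial growth factor, which signals through the receptor tyrosine kinases encoded by Kdr and Flt1, and on the angiopoietins, which signal through Tek with the related orphan receptor Tie1. Their contacts are held together by VE-cadherin (Cdh5) and PECAM-1 (Pecam1), and their surface carries endoglin (Eng), a co-receptor for BMP9 and BMP10, roundabout 4 (Robo4), a guidance receptor, and the sialomucin endomucin (Emcn). Von Willebrand factor (Vwf), a clotting protein that binds platelets, is stored in and secreted by endothelial cells and is more abundant in veins, large vessels and endocardium than in capillaries.

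Values are given on the deposited log2 scale, as the mean of an animal's 2 arrays unless an array is named. Stk4, which encodes Mst1, stood at 7.41 to 7.65 in the Ntg animals and at 7.50 to 7.79 with dnPI3K, against 8.16 to 8.35 with Mst1 and 8.17 to 8.39 with both transgenes. These ranges matched the labels in all 16 animals. Pik3ca, which encodes the p110-alpha catalytic subunit of PI3K, was higher in dnPI3K than in Ntg by 0.92 ± 0.13 (SE; limma, adjusted p = 0.00028) and in dnPI3K-Mst1 by 1.16 ± 0.13 (adjusted p = 1.2e-06). It was also higher in Mst1 by 0.61 ± 0.13 (adjusted p = 0.0014), and the part of the gene held by the dnPI3K transgene is not in the labels. As a check of the tissue, 10 of 10 cardiac myocyte markers, among them the atrial myosin light chain gene Myl7, were bright enough to test. Their summed level was 15.67 to 15.80 in Ntg, 15.37 to 15.68 in Mst1, 15.68 to 15.72 in dnPI3K and 15.44 to 15.64 in dnPI3K-Mst1.

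The atrium was read from Bmp10, a gene known for its expression in the right atrium, since 1 array of each animal lay at or above 9.0 and the other below. The 16 Bmp10-high arrays ran from 11.42 to 12.77 and the 16 Bmp10-low arrays from 3.77 to 6.64. The Bmp10-high array was the one labelled left in 13 of 16 animals and the one labelled right in 3, so the side labels and Bmp10 go against each other in most animals. The side is therefore named here by Bmp10 and not by the label. A mean correlation with the other arrays under 0.97 was found for 4 arrays, each the Bmp10-high array of its animal: those of Mst1 1466 (0.949), dnPI3K 3241 (0.960), dnPI3K 1507 (0.968) and Ntg 1662 (0.969).

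The promoter windows of 3 pairs of members are shown because each pair followed 1 of 3 patterns: Kdr and Flt1 were lower in Mst1 and in dnPI3K-Mst1, Tek and Tie1 were lower in Mst1 and called higher again with both transgenes, and Eng and Emcn were called higher than Ntg with both. Each window covers 250 bases before to 50 bases after the RefSeq start site on GRCm38.p6, 5′ to 3′ on the gene's strand. Capitals mark the letters AGGAAG or CGGAAG on either strand. They are among the letters that ETS factors, the transcription factor family best known from endothelial promoters, can bind. Other letters bound by these factors were not marked or counted. The windows lie at chr5:75978406-75978705 on the minus strand for Kdr, chr5:147725962-147726261 on the minus strand for Flt1, chr4:94739039-94739338 on the plus strand for Tek, chr4:118489800-118490099 on the minus strand for Tie1, chr2:32646345-32646644 on the plus strand for Eng and chr3:137340828-137341127 on the plus strand for Emcn.
Kdr: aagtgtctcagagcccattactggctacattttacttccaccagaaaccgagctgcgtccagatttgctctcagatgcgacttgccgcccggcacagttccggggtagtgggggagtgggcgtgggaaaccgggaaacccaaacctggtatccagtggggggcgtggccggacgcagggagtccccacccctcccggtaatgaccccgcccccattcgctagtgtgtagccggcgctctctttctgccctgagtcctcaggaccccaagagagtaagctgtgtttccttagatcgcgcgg
Flt1: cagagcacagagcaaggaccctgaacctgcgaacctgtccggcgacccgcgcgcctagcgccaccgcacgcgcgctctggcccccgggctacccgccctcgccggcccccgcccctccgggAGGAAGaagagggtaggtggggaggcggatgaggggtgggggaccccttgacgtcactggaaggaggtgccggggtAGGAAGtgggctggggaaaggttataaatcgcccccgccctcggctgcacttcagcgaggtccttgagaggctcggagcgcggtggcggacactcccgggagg
Tek: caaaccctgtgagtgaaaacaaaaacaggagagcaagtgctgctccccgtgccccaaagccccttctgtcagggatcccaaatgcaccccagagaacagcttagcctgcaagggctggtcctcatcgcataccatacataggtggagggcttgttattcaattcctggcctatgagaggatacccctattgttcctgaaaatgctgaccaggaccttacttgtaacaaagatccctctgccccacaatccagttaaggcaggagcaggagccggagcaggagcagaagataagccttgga
Tie1: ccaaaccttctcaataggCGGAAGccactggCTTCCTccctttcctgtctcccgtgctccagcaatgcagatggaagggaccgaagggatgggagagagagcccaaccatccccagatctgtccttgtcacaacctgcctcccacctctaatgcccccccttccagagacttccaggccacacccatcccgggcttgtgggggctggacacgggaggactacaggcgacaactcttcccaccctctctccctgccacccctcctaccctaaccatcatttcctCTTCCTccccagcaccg
Eng: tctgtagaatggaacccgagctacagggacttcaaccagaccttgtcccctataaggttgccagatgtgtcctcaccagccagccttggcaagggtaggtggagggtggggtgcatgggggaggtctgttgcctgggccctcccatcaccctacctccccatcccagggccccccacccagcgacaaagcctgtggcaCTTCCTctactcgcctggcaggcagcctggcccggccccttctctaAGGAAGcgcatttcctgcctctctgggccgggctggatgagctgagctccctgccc
Emcn: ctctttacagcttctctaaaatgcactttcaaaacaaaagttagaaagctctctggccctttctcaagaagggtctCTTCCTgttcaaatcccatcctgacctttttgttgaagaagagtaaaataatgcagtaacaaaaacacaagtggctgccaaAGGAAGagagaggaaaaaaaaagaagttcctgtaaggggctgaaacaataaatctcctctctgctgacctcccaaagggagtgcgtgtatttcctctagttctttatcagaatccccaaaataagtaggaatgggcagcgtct

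RefSeq windows were matched for 7 of the 10 members: these 6 and Robo4, at chr9:37401722-37402021 on the plus strand. The ETS letters were in 5 of the 7 (Flt1, Tie1, Eng, Robo4 and Emcn), and in 46.5% of all 32851 windows of the same length. Tie1 held 3 matches, Flt1, Eng and Emcn 2 each, and Robo4 1. Kdr and Tek held 0 matches to these letters in this window, so 1 member of each of the first 2 pairs had them and the other did not. The letters AGATAA, bound by GATA factors, were in the Tek window alone (11.2% of all windows), and TATAAA was in the Flt1 window alone (13.6%). The E-box CANNTG was in 6 of the 7 (72.3% of all), and the forkhead letters GTAAACA (3.65%) and the SOX letters ACAATG (12.6%) were in 0. All motifs were searched on both strands, and a match is a description of the sequence only. GC content ranged from 41.0% (Emcn) to 70.7% (Flt1) around a median of 52.7% over all windows.

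Not all of the endothelial genes were lower with Mst1. Kdr, Tek, Cdh5, Flt1 and Tie1 fell in Mst1 against Ntg, by 1.36-fold to 1.73-fold. Vwf was called higher by 1.35-fold, at the edge of the threshold (limma, adjusted p = 0.049) and with overlapping groups. That Vwf call was lost in most fits that left out 1 animal, as given below. Of the 10 members, 5 were called lower at an adjusted p under 0.05 (14.2% of all genes tested were) and 1 was called higher (12.6% of all genes). The median log2 difference of the 10 was -0.37, beside 0.00 over all genes tested. The 4 Mst1 values all lay below the 4 Ntg values for 6 members, the 5 called lower and Pecam1 (14.6% of all genes), and all above them for 0 (11.2%). In whole atrial RNA, fewer endothelial cells and less RNA of these genes per cell cannot be told apart.

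**Figure D1:**
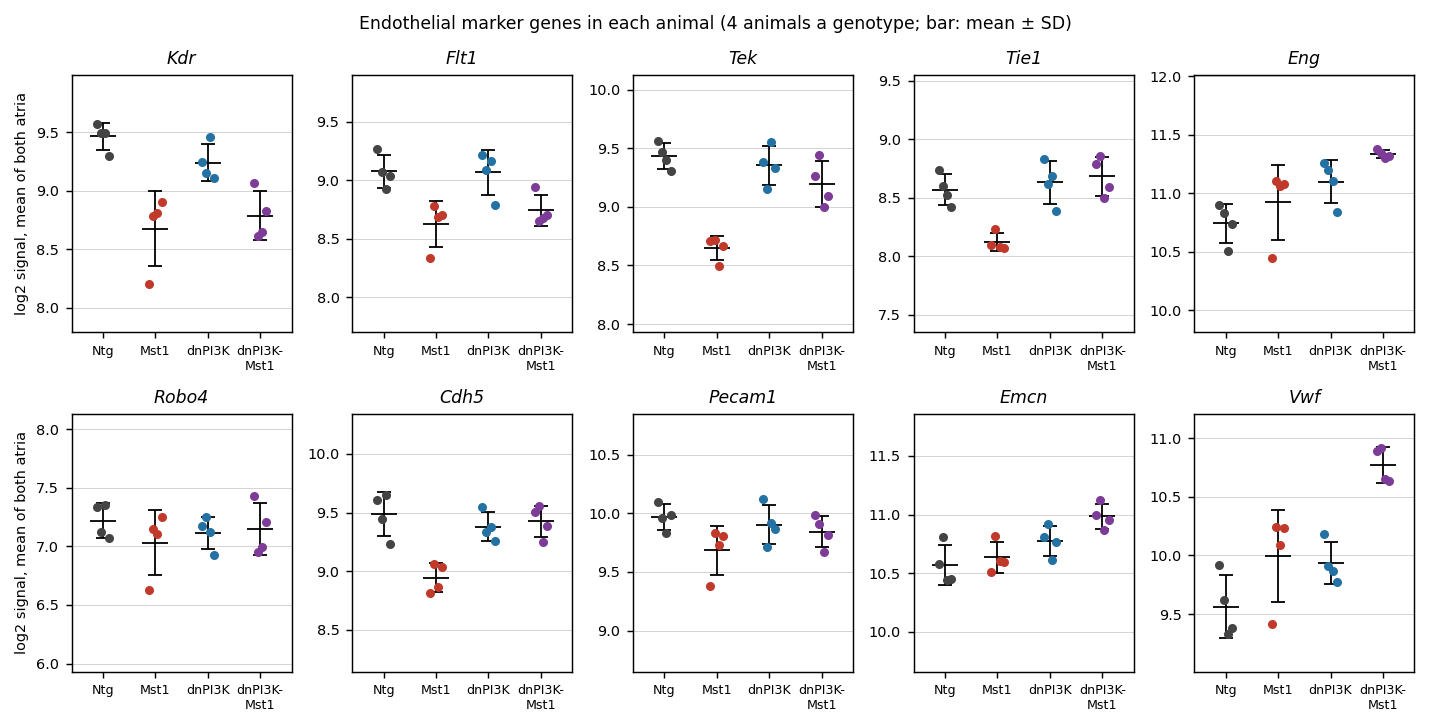
Level of each endothelial gene (log2, mean of both arrays of an animal) in the 4 genotypes, 1 point an animal, with the mean and SD of 4 animals as a bar. Tek stood at 8.50 to 8.72 in Mst1 and at 8.997 to 9.44 in dnPI3K-Mst1, whereas Kdr stayed at 8.61 to 9.06 in dnPI3K-Mst1 and Vwf reached 10.63 to 10.91.

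The VEGF receptor genes Kdr and Flt1 were lower than in Ntg in both genotypes that carried Mst1. Kdr (probe set 10530692; chr5:75932827-75979072), the main signalling receptor for VEGF-A, read 9.57, 9.49, 9.50 and 9.30 in the Ntg animals and 8.20, 8.78, 8.81 and 8.91 in Mst1. It read 9.24, 9.15, 9.46 and 9.11 in dnPI3K and 9.06, 8.61, 8.65 and 8.83 in dnPI3K-Mst1. Every animal with the Mst1 transgene, alone or with dnPI3K, lay below every animal without it. Kdr fell by 0.79 ± 0.13 in Mst1 (1.73-fold, adjusted p = 0.00014) and by 0.68 ± 0.13 in dnPI3K-Mst1 (1.60-fold, adjusted p = 0.00059) against Ntg. The 2 Mst1-carrying groups differed by 0.11 (95% interval -0.16 to 0.39, adjusted p = 0.75), so a gain of up to 0.39 with dnPI3K is within the interval. The order of the group means was Ntg (9.46 ± 0.12, SD, n = 4), dnPI3K (9.24 ± 0.16), dnPI3K-Mst1 (8.79 ± 0.21) and Mst1 (8.67 ± 0.32). Neither the first nor the last neighbouring pair in that order was called different. Mst1 animal 1466 was the lowest, and without it the difference from Ntg was -0.63 in place of -0.79.

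Flt1 (probe set 10535807; chr5:147561604-147726438), a VEGF receptor of high affinity that also exists as a soluble decoy, moved like Kdr with a smaller step. Its values were 9.27, 9.07, 8.92 and 9.03 in Ntg, 8.34, 8.78, 8.69 and 8.70 in Mst1, 9.22, 9.09, 9.17 and 8.79 in dnPI3K, and 8.94, 8.65, 8.67 and 8.70 in dnPI3K-Mst1. The Mst1 and Ntg animals did not overlap, while the highest dnPI3K-Mst1 animal lay above the lowest Ntg animal. Flt1 fell by 0.45 ± 0.11 in Mst1 (1.37-fold, adjusted p = 0.0046) and by 0.33 ± 0.11 in dnPI3K-Mst1 (1.26-fold, adjusted p = 0.027) against Ntg. The second call was lost without any 1 of dnPI3K-Mst1 1647, 1649 and 1650 and Ntg 1301 and 1657, with differences of -0.33 to -0.27 and adjusted p up to 0.096. Against Mst1, dnPI3K-Mst1 was higher by 0.12 (95% interval -0.12 to 0.35), which did not pass. Ntg and dnPI3K had the same mean to 2 decimals (9.07 ± 0.14 and 9.07 ± 0.19), above dnPI3K-Mst1 (8.74 ± 0.13) and Mst1 (8.63 ± 0.20).

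The angiopoietin receptor and its relative were lower in Mst1 and higher again when dnPI3K was present as well. Tek (probe set 10505954; chr4:94739086-94874976), which encodes Tie2, the receptor for the angiopoietins, read 9.56, 9.47, 9.40 and 9.30 in Ntg and 8.71, 8.72, 8.50 and 8.66 in Mst1. It read 9.39, 9.15, 9.55 and 9.33 in dnPI3K and 9.26, 9.44, 8.997 and 9.09 in dnPI3K-Mst1. The 4 Mst1 animals lay below all 12 others. Tek fell in Mst1 by 0.79 ± 0.10 against Ntg (1.73-fold, adjusted p = 7.2e-06), and dnPI3K-Mst1 was higher than Mst1 by 0.55 ± 0.10 (1.46-fold, adjusted p = 0.0045). The difference of dnPI3K-Mst1 from Ntg was -0.24 (95% interval -0.45 to -0.02, adjusted p = 0.087), and it passed without dnPI3K-Mst1 1647 (-0.32, adjusted p = 0.023). It also passed with array weights (-0.31, adjusted p = 0.011), as did the difference of dnPI3K-Mst1 from dnPI3K (-0.26, adjusted p = 0.044). The means ran from Ntg (9.43 ± 0.11) through dnPI3K (9.35 ± 0.17) and dnPI3K-Mst1 (9.20 ± 0.20) to Mst1 (8.65 ± 0.10), and of the neighbours only the last pair was called different.

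Tie1 (probe set 10515771; chr4:118471191-118489849), the orphan receptor that pairs with Tie2, read 8.74, 8.60, 8.52 and 8.42 in Ntg and from 8.08 to 8.23 in Mst1. It read 8.83, 8.62, 8.68 and 8.39 in dnPI3K and 8.79, 8.86, 8.50 and 8.59 in dnPI3K-Mst1. Again the 4 Mst1 animals lay below all 12 others. Tie1 fell in Mst1 by 0.45 ± 0.10 (adjusted p = 0.0022), and dnPI3K-Mst1 exceeded Mst1 by 0.56 ± 0.10 (1.48-fold, adjusted p = 0.0038). With both transgenes the mean of 8.68 ± 0.17 was 0.11 from the Ntg mean of 8.57 ± 0.14 (95% interval of the difference -0.10 to 0.32).

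Cdh5 (probe set 10574438; chr8:104101613-104144504), the cadherin of endothelial adherens junctions, was, like Tek and Tie1, lowest in Mst1. Its values were 9.61, 9.45, 9.65 and 9.23 in Ntg, 8.81, 9.06, 8.87 and 9.03 in Mst1, 9.54, 9.33, 9.38 and 9.26 in dnPI3K, and 9.51, 9.55, 9.25 and 9.39 in dnPI3K-Mst1. Here too the 4 Mst1 animals were the lowest of the 16. Cdh5 fell in Mst1 by 0.54 ± 0.10 (1.46-fold, adjusted p = 0.00036) and was higher in dnPI3K-Mst1 than in Mst1 by 0.48 ± 0.10 (1.40-fold, adjusted p = 0.010). Its difference between dnPI3K-Mst1 and Ntg was -0.06 (95% interval -0.27 to 0.15). Pecam1 (probe set 10392221; chr11:106654213-106715281), an adhesion molecule also carried by platelets and leukocytes, ran from 9.84 to 10.10 in Ntg, 9.38 to 9.83 in Mst1, 9.72 to 10.12 in dnPI3K and 9.67 to 9.98 in dnPI3K-Mst1. Its Mst1 animals lay just under its Ntg animals, and the difference of -0.29 (95% interval -0.51 to -0.06) missed the threshold at an adjusted p of 0.053. It was called when any 1 of Mst1 1838 or 1840, Ntg 1662, or dnPI3K 1507 or 1648 was left out (-0.33 to -0.29), but was -0.18 without Mst1 1466.

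Whether the 2 transgenes together differed from the sum of their separate differences was asked by a non-additivity term, the difference between dnPI3K-Mst1 and Mst1 less that between dnPI3K and Ntg. limma called 0 of the 10 members (0.513% of all genes were called), and 3 had an unadjusted p under 0.05, as did 10.9% of all genes. The term was 0.63 for Tek (95% interval 0.33 to 0.93, adjusted p = 0.053), 0.59 for Cdh5 (0.29 to 0.88, adjusted p = 0.064) and 0.50 for Tie1 (0.20 to 0.80, adjusted p = 0.14). The Tek term passed without dnPI3K-Mst1 1649, dnPI3K 1660, Mst1 1466 or Ntg 1834 (0.65 to 0.70, adjusted p 0.029 to 0.042), and the Cdh5 term without Ntg 1834 (0.67, adjusted p = 0.024).

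Vwf, Eng and Emcn were each called higher than Ntg in the mice with both transgenes. Vwf (probe set 10541910; chr6:125552948-125686679) read 9.92, 9.62, 9.33 and 9.38 in Ntg and 9.42, 10.24, 10.09 and 10.24 in Mst1. It read 10.19, 9.91, 9.87 and 9.77 in dnPI3K and 10.90, 10.91, 10.65 and 10.63 in dnPI3K-Mst1. All 4 animals with both transgenes lay above all 12 others, whereas Mst1 animal 1466 lay within the Ntg range. Vwf was higher in dnPI3K-Mst1 than in Ntg by 1.21 ± 0.16 (2.32-fold, adjusted p = 6.9e-06), than in Mst1 by 0.78 ± 0.16 (1.71-fold, adjusted p = 0.0093) and than in dnPI3K by 0.84 ± 0.16 (1.79-fold, adjusted p = 0.00066). Its difference of 0.43 ± 0.16 between Mst1 and Ntg (95% interval 0.10 to 0.77, adjusted p = 0.049) was at the edge of the threshold. That call was lost in 13 of 16 fits that left out 1 animal (0.35 to 0.45, adjusted p 0.052 to 0.16), the exceptions being Mst1 1466, Ntg 1301 and dnPI3K 1507. Without Mst1 1466 it was 0.63 (adjusted p = 0.00068). The means ran in the order Ntg (9.56 ± 0.27), dnPI3K (9.94 ± 0.18), Mst1 (9.997 ± 0.39) and dnPI3K-Mst1 (10.77 ± 0.15), and the first 2 neighbouring pairs overlapped.

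Eng (probe set 10471486; chr2:32646595-32682669), the BMP co-receptor, read 10.90, 10.83, 10.51 and 10.73 in Ntg, 10.45, 11.10, 11.06 and 11.08 in Mst1, 11.25, 11.20, 11.10 and 10.84 in dnPI3K, and 11.38, 11.34, 11.30 and 11.32 in dnPI3K-Mst1. The 4 animals with both transgenes were the highest of the 16 and lay close together. Eng was higher in dnPI3K-Mst1 than in Ntg by 0.59 ± 0.13 (1.51-fold, adjusted p = 0.0011), and than in Mst1 by 0.41 (95% interval 0.15 to 0.68, adjusted p = 0.072), which did not pass. That difference was called with quantile scaling (0.41, adjusted p = 0.045), with array weights (0.27, adjusted p = 0.021) and on leaving out Mst1 1466, dnPI3K 1507, dnPI3K 3241 and Ntg 1662 together (0.26, adjusted p = 0.021). Mst1 against Ntg gave 0.18 (-0.08 to 0.44, adjusted p = 0.34) with Mst1 1466 and 0.34 (adjusted p = 0.0089) without it. Emcn (probe set 10496359; chr3:137341062-137431069) read 10.57, 10.81, 10.44 and 10.45 in Ntg, 10.51, 10.82, 10.61 and 10.60 in Mst1, 10.81, 10.92, 10.61 and 10.76 in dnPI3K, and 10.997, 11.12, 10.87 and 10.95 in dnPI3K-Mst1. With both transgenes every animal exceeded every Ntg and Mst1 animal. Emcn was higher in dnPI3K-Mst1 than in Ntg by 0.42 ± 0.09 (1.33-fold, adjusted p = 0.0020) and than in Mst1 by 0.35 ± 0.09 (1.27-fold, adjusted p = 0.044). The second of these calls was lost in 8 of 16 fits without 1 animal, those without dnPI3K-Mst1 1509, 1647 or 1650, Mst1 1466, 1839 or 1840, dnPI3K 1507 or Ntg 1301 (0.30 to 0.36, adjusted p 0.052 to 0.14).

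Robo4 (probe set 10584288; chr9:37401902-37414023) passed in no comparison of the animal means. It ran from 7.07 to 7.36 in Ntg, 6.63 to 7.25 in Mst1, 6.93 to 7.25 in dnPI3K and 6.96 to 7.43 in dnPI3K-Mst1, ranges that overlapped throughout. Its difference between Mst1 and Ntg was -0.19 (95% interval -0.45 to 0.08), and -0.05 without Mst1 1466.

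With dnPI3K alone, limma called 0 of the 10 members against Ntg (4.05% of all genes were called), and 3 members, Eng, Vwf and Emcn, had an unadjusted p under 0.05, as did 16.9% of all genes. Their differences were 0.36 for Eng (95% interval 0.10 to 0.62, adjusted p = 0.13), 0.37 for Vwf (0.04 to 0.71) and 0.21 for Emcn (0.01 to 0.40). Eng passed when Mst1 1466, which enters only through the shared spread, was left out (0.36, adjusted p = 0.017). Kdr stood at -0.23 (-0.50 to 0.05), and the other 6 lay between -0.11 and 0.06. The median of the 10 was -0.04.

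Against Ntg, the mice with both transgenes had 2 members lower, Kdr and Flt1 (14.2% of all genes were called lower), and 3 higher, Eng, Emcn and Vwf (16.4%). The median of the 10 was -0.07, beside 0.02 over all genes. Against Mst1 they had 5 members called higher, Tek, Tie1, Cdh5, Emcn and Vwf, where 2.65% of all genes were, and 0 called lower (0.848%). The groups of 6 members, these 5 and Eng, did not overlap between the groups (8.13% of all genes). The median of the 10 was 0.38, beside 0.01. Against dnPI3K, Kdr was lower by 0.45 ± 0.13 (adjusted p = 0.019) and Flt1 by 0.32 ± 0.11 (adjusted p = 0.042), 2 members where 8.8% of all genes were called lower, and Vwf was the 1 member higher (12.8%). The Flt1 call was lost in 9 of 16 fits without 1 animal (dnPI3K-Mst1 1647, 1649 or 1650, dnPI3K 1507, 1648 or 1660, Mst1 1839, Ntg 1657 or 1834) and the Kdr call in 3 (without dnPI3K-Mst1 1647 or 1649 or dnPI3K 1660), with Kdr differences of -0.40 to -0.38 and Flt1 differences of -0.32 to -0.27. The comparisons against Ntg share the Ntg animals. Mst1 against Ntg and dnPI3K-Mst1 against Mst1 share the Mst1 animals with opposite sign, so low values in those animals enter both. The values of these comparisons are therefore set side by side only.

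**Figure D2:**
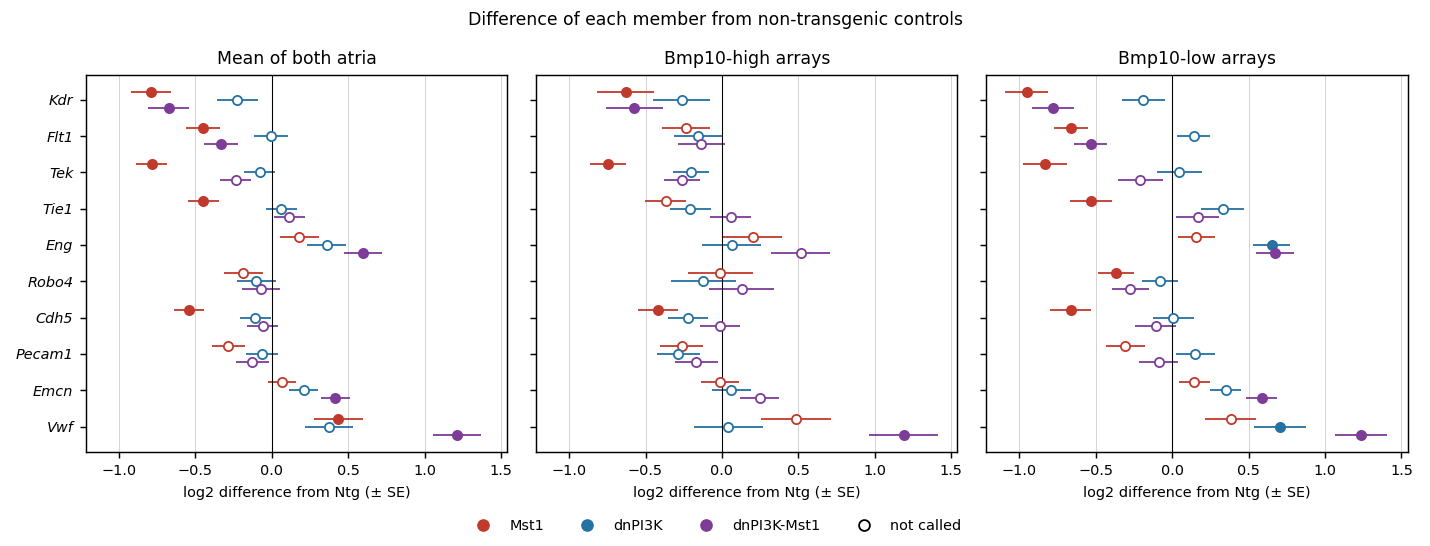
Difference of each genotype from Ntg (log2 ± SE) for the 10 endothelial genes, from the mean of both atria, the Bmp10-high arrays and the Bmp10-low arrays. Filled points passed at an adjusted p under 0.05 and open points did not. Kdr lay at -0.79 in Mst1 and -0.68 in dnPI3K-Mst1 on the animal means, Tek at -0.79 and -0.24, and Vwf at 0.43 and 1.21.

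The members also differed between the atria. Within animals, Tek was higher in the Bmp10-high array by 0.46 ± 0.06 (adjusted p = 5.8e-06), in 16 of 16 animals, and Vwf by 0.60 ± 0.09 (adjusted p = 2.9e-05), in 14 of 16. Eng was higher by 0.27 ± 0.07 (adjusted p = 0.022) and Flt1 by 0.20 ± 0.06 (adjusted p = 0.024), each in 13 of 16 animals. These were 4 of the 10 members, where 3.08% of all genes were called higher. The Eng and Flt1 calls were each lost in 5 of 16 fits without 1 animal (Eng 0.22 to 0.25, Flt1 0.17 to 0.19): both without dnPI3K-Mst1 1650, dnPI3K 1507 or 1648 or Mst1 1838, Eng also without Ntg 1662 and Flt1 also without Ntg 1301. Kdr (0.21, adjusted p = 0.076) passed without Mst1 1466, Ntg 1662 or dnPI3K 1660 (0.24 to 0.26). Tie1 (0.05), Cdh5 (0.01) and Robo4 (-0.08) were higher in the Bmp10-high array in 8 of 16 animals each. Taken by the labels, right minus left, limma called 0 members, and the differences were -0.24 for Tek, -0.25 for Vwf, -0.06 for Eng and -0.12 for Flt1. Right minus left was Bmp10-low minus Bmp10-high in 13 of 16 animals, so a negative sign in those animals means a higher Bmp10-high array.

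In the Ntg animals Tek read 9.84, 9.83, 9.66 and 9.44 in the Bmp10-high arrays and 9.28, 9.12, 9.14 and 9.17 in the Bmp10-low arrays. The 2 sets did not overlap, and Tek was higher in the Bmp10-high array by 0.52 in Ntg, 0.60 in Mst1 and 0.46 in dnPI3K-Mst1, a call in each. Vwf was called higher in the same 3 genotypes, by 0.76, 0.86 and 0.71. Flt1 was called in Mst1 (0.49) and dnPI3K-Mst1 (0.47), and the genes called higher were 1.92% of all in Ntg, 0.907% in Mst1 and 0.762% in dnPI3K-Mst1.

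In dnPI3K, limma called 0 members between the atria (4.8% of all genes in either direction). There Flt1, Tek and Tie1 had an unadjusted p under 0.05, as did 14.8% of all genes. Tie1 (-0.37), Cdh5 (-0.25) and Pecam1 (-0.20) were lower in the Bmp10-high array in 4 of 4 dnPI3K animals. In dnPI3K 1648 these differences were close to none (-0.044, -0.017 and -0.0055). The Bmp10-high arrays of dnPI3K 1507 and 3241 were among those with a mean correlation under 0.97 with the other arrays. Flt1 read 9.22, 9.14, 8.91 and 8.54 in the Bmp10-high arrays of dnPI3K and 9.21, 9.04, 9.42 and 9.04 in the Bmp10-low arrays, whereas in dnPI3K-Mst1 it read 9.04, 8.89, 8.97 and 8.99 against 8.83, 8.41, 8.38 and 8.41. All 4 dnPI3K-Mst1 animals were thus higher in the Bmp10-high array, and the dnPI3K animals were mixed. The difference between these differences was 0.70 ± 0.16 (95% interval 0.37 to 1.02, adjusted p = 0.026), a call given to 0.736% of all genes. It was lost without dnPI3K-Mst1 1647, 1649 or 1650 or dnPI3K 1660 or 3241 (0.60 to 0.69, adjusted p 0.057 to 0.11). In the other comparisons of the atrial difference limma called 0 members. Of all genes, 1.17% were called in Mst1 against Ntg and 0.125% in dnPI3K against Ntg. For dnPI3K-Mst1, 0.999% were called against Ntg and 0.00657% against Mst1. In the same order 1, 5, 2 and 0 members had an unadjusted p under 0.05, as did 11.2%, 8.74%, 8.86% and 4.26% of all genes.

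**Figure D3:**
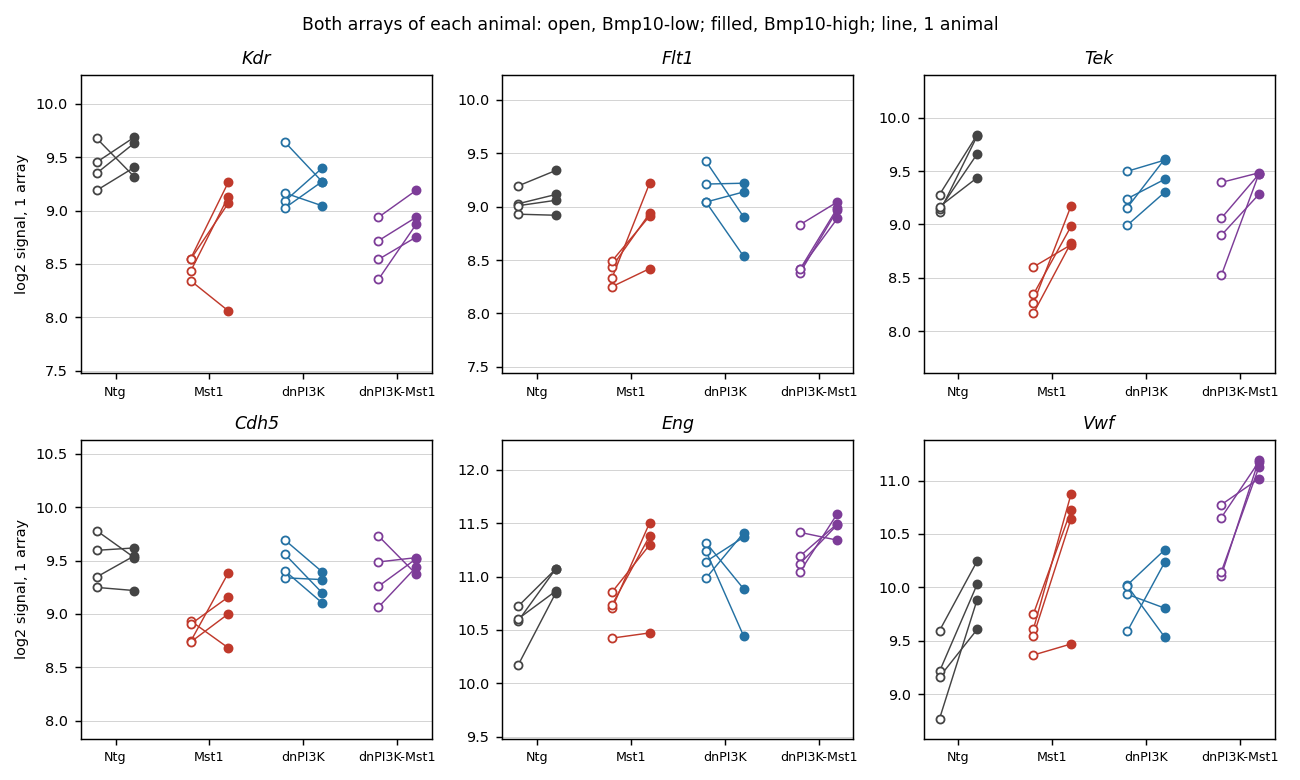
Level (log2) of Kdr, Flt1, Tek, Cdh5, Eng and Vwf in each of the 32 arrays by genotype. Filled points are Bmp10-high arrays, open points Bmp10-low arrays, and a line joins the 2 arrays of an animal. Tek was higher in the Bmp10-high array in 16 of 16 animals and Vwf in 14 of 16.

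Taken within an atrium, the difference between Mst1 and Ntg involved more members in the Bmp10-low arrays. There 6 members were lower, where 12.2% of all genes were: Kdr fell by 0.95 ± 0.14 (1.93-fold, adjusted p = 5.2e-05), Tek by 0.83 ± 0.15, Flt1 and Cdh5 by 0.66 each, Tie1 by 0.53 and Robo4 by 0.36 (adjusted p = 0.029). Kdr read 9.45, 9.35, 9.68 and 9.19 in the Ntg Bmp10-low arrays and 8.34, 8.43, 8.54 and 8.55 in those of Mst1, a gap with no array between 8.55 and 9.19. The Robo4 call was lost without Mst1 1838 or 1839 or Ntg 1301 or 1662 (-0.36 to -0.28). In the Bmp10-high arrays 3 members were lower (9.48% of all genes): Tek by 0.74 ± 0.12 (adjusted p = 0.00011), Kdr by 0.63 ± 0.19 (adjusted p = 0.026) and Cdh5 by 0.42 ± 0.13 (adjusted p = 0.032). Kdr read 9.69, 9.63, 9.32 and 9.40 in the Ntg Bmp10-high arrays and 8.06, 9.13, 9.07 and 9.26 in those of Mst1, where 8.06 is the Mst1 1466 array that stood apart. The Kdr call was lost without Ntg 1301 or 1657 (-0.59 and -0.57). The Cdh5 call was lost without Mst1 1466 (-0.30, adjusted p = 0.074), Mst1 1839 or Ntg 1301, 1657 or 1662 (-0.40 to -0.30). Vwf in the same arrays gave 0.49 (adjusted p = 0.18), and 0.80 (adjusted p = 0.0010) without Mst1 1466. The difference of the 2 atria's contrasts was called for 0 members, as given above.

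With dnPI3K alone, the Bmp10-low arrays showed 2 members higher than Ntg, where 1.62% of all genes were called higher. Eng read 10.72, 10.58, 10.17 and 10.60 in Ntg and 11.14, 10.98, 11.32 and 11.24 in dnPI3K, with no overlap, a difference of 0.65 ± 0.12 (1.57-fold, adjusted p = 0.0047). Vwf was higher by 0.71 ± 0.17 (1.63-fold, adjusted p = 0.024), read 9.59, 9.21, 8.77 and 9.16 in Ntg and 10.02, 9.59, 9.93 and 10.01 in dnPI3K, and lost its call without dnPI3K 1507, 1660 or 3241 or Ntg 1657, 1662 or 1834 (0.57 to 0.71). In the Bmp10-high arrays limma called 0 members (0.986% of all genes), with 0 at an unadjusted p under 0.05 (12% of all genes). Without the 4 animals whose arrays stood apart, the counts were 0 in the Bmp10-low and 1 in the Bmp10-high arrays.

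With both transgenes against Mst1, 6 members were higher in the Bmp10-low arrays, where 1.6% of all genes were called higher: Tek by 0.62, Tie1 by 0.70, Eng by 0.51, Cdh5 by 0.56, Emcn by 0.44 and Vwf by 0.85. These calls lay near the threshold (adjusted p 0.015 to 0.036), and between 0 and 6 of them held when 1 animal was left out. The count was lower than 4 without dnPI3K-Mst1 1509 or 1647 or Mst1 1838, 1839 or 1840. In the Bmp10-high arrays limma called 0 (0.887% of all genes), while Cdh5, Tek, Tie1 and Vwf had an unadjusted p under 0.05, as did 9.27% of all genes. The same 6 members were higher there by 0.48 (Tek, adjusted p = 0.056), 0.43 (Tie1), 0.32 (Eng), 0.41 (Cdh5), 0.26 (Emcn) and 0.70 (Vwf). Between dnPI3K-Mst1 and Mst1 the atrial difference itself was called for 0 members, as given above. 

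Against Ntg, the Bmp10-low arrays of the mice with both transgenes had Kdr (-0.78) and Flt1 (-0.53) lower, where 13.4% of all genes were, and Eng (0.67), Emcn (0.59) and Vwf (1.24) higher (16.5%), the same 5 members as on the animal means. Against dnPI3K, these arrays had Kdr (-0.59) and Flt1 (-0.67) lower (8.03%) and Vwf (0.53) higher (9.39%). Vwf read 11.02, 11.18, 11.19 and 11.12 in the Bmp10-high arrays of dnPI3K-Mst1, against 10.24, 10.03, 9.88 and 9.60 in Ntg and 10.35, 10.24, 9.80 and 9.53 in dnPI3K. Each of its 4 values lay above all 8 of the others. It was higher than in Ntg by 1.19 (2.28-fold, adjusted p = 0.00067; 8.11% of all genes were called higher) and than in dnPI3K by 1.15 (adjusted p = 0.0015; 8%). Kdr was 0.57 lower than in Ntg (log2 difference -0.57, adjusted p = 0.039; 8.53%), a call lost in 6 of 16 fits without 1 animal (-0.61 to -0.51), those without dnPI3K-Mst1 1647, 1649 or 1650 or Ntg 1301, 1657 or 1834. The Vwf difference from dnPI3K in the Bmp10-low arrays lost its call without dnPI3K-Mst1 1509 or 1647 or dnPI3K 1648 or 1660 (0.41 to 0.55).

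Other endothelial genes were counted by lists of vessel type and pathway. In Mst1 against Ntg 26.8% of all genes were called in either direction. Of 20 further pan-endothelial markers 13 were lower and 0 higher (median -0.50), led by the matrix gene Mmrn2 (-0.80), the junction regulator gene Rasip1 (-0.73), the GTPase gene Gimap6 (-0.71) and the sphingosine-1-phosphate receptor gene S1pr1 (-0.69). Of 12 capillary genes 9 were lower and 0 higher (median -0.55): the glycerol channel gene Aqp7 fell by 1.65, Timp4 by 1.22, Cd300lg by 1.01 and the carbonic anhydrase gene Car4 by 1.00. Of 22 endothelial transcription factors 11 were lower and 0 higher (median -0.31), among them Epas1 (-0.55), Nr2f2 (-0.51), Klf2 (-0.50) and the ETS factor gene Erg (-0.46).

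Arterial genes were divided, with 3 of 11 higher and 3 lower: the netrin receptor gene Unc5b was higher by 1.40, and Gja5, a connexin gene also expressed in atrial myocytes, fell by 1.43. The Notch ligand gene Dll4 (-0.67) and its target Hey1 (-0.59) were lower. Of 11 Notch pathway genes 4 were lower and 0 higher, Jag2 (-0.43) and Dll1 (-0.40) with Dll4 and Hey1. The list of VEGF, angiopoietin and endoglin signalling, which holds ligands and partners of the members, had 7 of 26 higher and 4 lower (median -0.03). In it the ligand gene Vegfb (-0.83) and the apelin receptor gene Aplnr (-0.63) were lower, and the BMP-induced inhibitor gene Smad6 (0.59) was higher. Of 6 venous genes tested 1 was higher and 3 lower, and of 7 endocardial genes 1 was higher, Cytl1 (1.10), and 1 lower, Tmem100 (-0.94). In the list of endothelial activation and haemostasis, 2 of 10 were higher and 3 lower. Edn1, which encodes endothelin-1, was higher by 1.92, and the protein C receptor gene Procr by 0.52, while Tfpi (-0.71) and the nitric oxide synthase gene Nos3 (-0.53) were lower. Of 10 partners of VE-cadherin in the adherens junction 0 were higher and 2 lower.

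**Figure D4:**
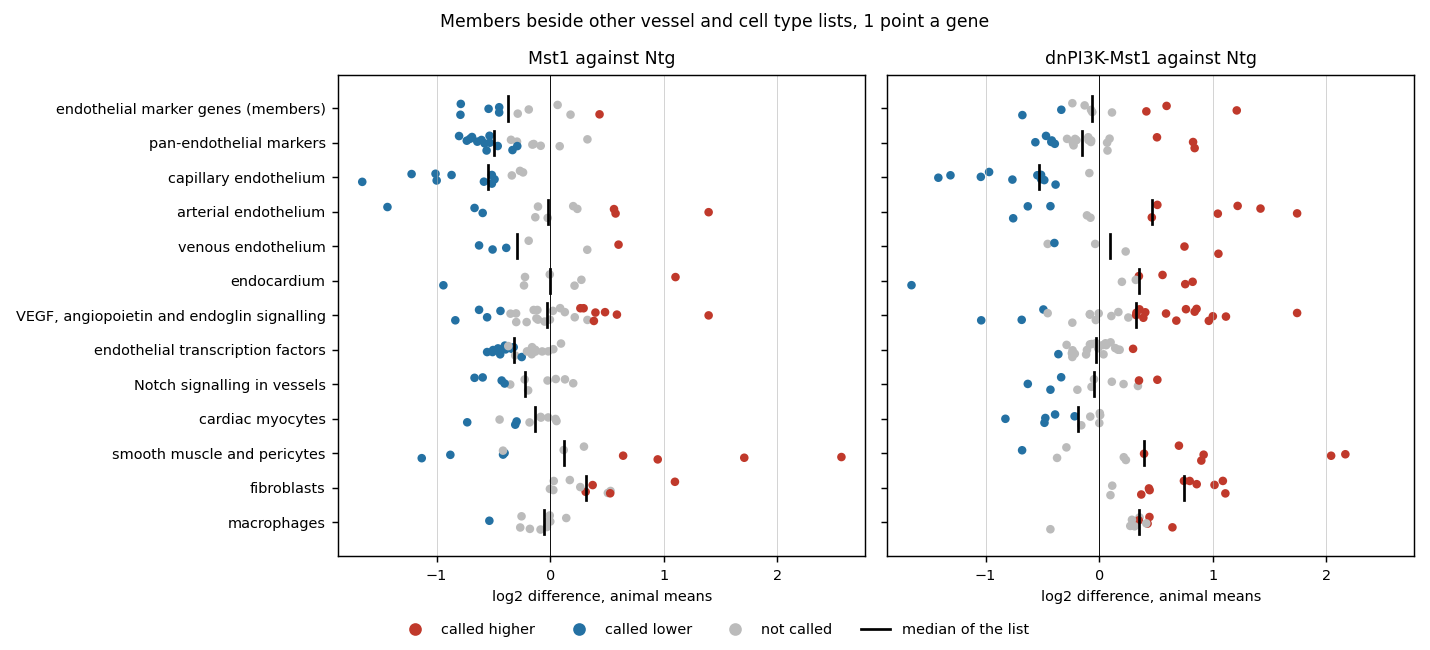
Log2 difference of each gene of 13 lists in Mst1 against Ntg and in dnPI3K-Mst1 against Ntg, 1 point a gene, with the median of the list as a bar. The capillary list lay at a median of -0.55 in Mst1 and -0.53 in dnPI3K-Mst1, and the pan-endothelial list at -0.50 and -0.15.

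With both transgenes against Ntg, 30.6% of all genes were called. The capillary list had 11 of 12 genes lower and 0 higher (median -0.53; Aqp7 -1.42, Timp4 -1.31, Car4 -1.04 and Cd300lg -0.97). The pan-endothelial list had 3 of 20 higher and 5 lower (median -0.15), with the phosphatase gene Ptprb (0.84) and the receptor gene Calcrl (0.83) higher and Gimap6 (-0.56) lower. Arterial genes were mostly higher, 6 of 11 against 3 lower: Unc5b by 1.74, Gja4 by 1.42, Bmx by 1.22 and Fbln5 by 1.04. Of the signalling list 14 of 26 were higher and 3 lower, with the Tek ligand gene Angpt2 (1.12) and Smad6 (1.00) higher and Vegfb (-1.04) lower. Of the transcription factors 1 of 22 was higher and 1 lower, and of the activation list 5 of 10 were higher and 2 lower, led by Edn1 (2.93).

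Set against Mst1, where 3.5% of all genes were called, the mice with both transgenes had 3 of 20 pan-endothelial genes higher (Calcrl 0.91, Cd93 0.55 and Ptprb 0.51), 5 of 11 arterial genes (Gja4 0.86, Fbln5 0.81, Gja5 0.68 and Bmx 0.64 the largest), 3 of 7 endocardial genes, 4 of 22 transcription factors (Nr2f2 0.47 the largest) and 6 of 26 signalling genes. Among the last were the ligand genes Vegfd (1.06) and Angpt2 (0.90) and the VEGF co-receptor gene Nrp1 (0.88). Of the 12 capillary genes 0 were called in either direction, with a median of 0.00. In dnPI3K against Ntg (4.05% of all genes called) 0 of 20 pan-endothelial genes and 1 of 12 capillary genes (Aqp1, -0.58) were called. The signalling list had 2 of 26 higher, the Robo ligand gene Slit2 (0.61) and Nrp1 (0.45), and the activation list 4 of 10, with Edn1 (0.81) and the adhesion gene Vcam1 (0.60) the largest.

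Markers of other cell types were counted in the same way. Of all genes, 12.6% were called higher and 14.2% lower in Mst1 against Ntg. With both transgenes against Ntg the shares were 16.4% and 14.2%, and several of the counts below lie near such shares. The myocyte list had 3 of 10 lower in Mst1 (Tnni3 -0.73, Pln -0.31 and Myl7 -0.30) and 5 of 10 lower with both transgenes, 0 higher in each. The fibroblast list had 4 of 11 higher in Mst1 (Mfap5 1.10 the largest) and 9 of 11 with both (Col1a2 1.11 and Col1a1 1.09), with 0 lower, and its summed level was 13.78 to 14.17 in Ntg, 14.20 to 14.28 in Mst1, 13.90 to 14.22 in dnPI3K and 14.34 to 14.67 in dnPI3K-Mst1. The smooth muscle and pericyte list had 4 of 11 higher and 4 lower in Mst1 (Cnn1 2.56, Tagln 1.71, Abcc9 -1.13 and Cspg4 0.95) and 6 higher and 1 lower with both. Macrophage genes were called in 1 of 10 in Mst1, lower, and in 4 with both, higher (Adgre1 0.64), with a summed level of 11.40 to 11.89 in Ntg, 11.43 to 11.73 in Mst1 and 11.67 to 12.38 with both. Of 5 platelet genes, whose cells also hold Vwf and Pecam1, 0 were called in Mst1 or with both transgenes, and their summed level was 8.16 to 8.77 in Ntg, 8.30 to 9.53 in Mst1 and 8.18 to 8.97 with both. Leukocyte genes were called in 0 of 4 in Mst1 and were higher in 3 with both (Ptprc 0.68). Mesothelial genes were lower in 3 of 6 in Mst1 and called in 0 with both. Of 3 adipocyte genes tested, whose cells also express Aqp7, Fabp4, Cd36 and Lpl of the capillary list, 1 was lower in Mst1 (Plin1 -0.67; Cidec -0.44 and Retn -0.16 did not pass) and 0 were called with both transgenes. Their summed level was 7.27 to 8.52 in Ntg, 6.99 to 7.47 in Mst1, 7.20 to 7.55 in dnPI3K and 7.14 to 8.22 with both. Of 2 erythroid genes 0 were called in Mst1 and 1 was lower with both. Which cells the lower capillary genes came from was not tested.

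In dnPI3K-Mst1 against Mst1, where Tek, Tie1, Cdh5, Emcn and Vwf were higher, some markers of other cell types were higher too, with 0 lower (2.65% and 0.848% of all genes). These were 3 of 11 smooth muscle and pericyte genes (Notch3 0.63, Pdgfrb 0.58 and Abcc9 0.45), 3 of 10 macrophage genes (Csf1r 0.68, Adgre1 0.64 and Mrc1 0.53), 2 of 6 mesothelial genes (Lrrn4 1.19 and Wt1 0.49) and 1 of 11 fibroblast genes (Pdgfra 0.41). Of the myocyte, adipocyte, platelet, erythroid and leukocyte genes 0 were called. The part of these markers in the members' differences was not tested.

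Between the atria, 8.5% of all genes were called. The capillary list was lower in the Bmp10-high array for 7 of 12 genes and higher for 1, with Timp4 at -1.37, Aqp7 at -1.13 and Cd300lg at 0.64. The Timp4 value is a mean over unlike genotypes, at -2.62 in Ntg and -1.88 in dnPI3K. Compared with Ntg it was less negative by 2.06 in Mst1 (limma, adjusted p = 0.00029) and by 2.20 in dnPI3K-Mst1 (adjusted p = 0.0001). The pan-endothelial list had 4 of 20 higher and 2 lower (Clec14a 0.40 and Cd34 -0.39), and the signalling list 5 of 26 higher and 6 lower, with Smad6 at 0.77 and the lymphatic receptor gene Flt4 at -0.45. Lymphatic genes were lower in 4 of 6 and higher in 1 (Mmrn1 -2.39), macrophage genes higher in 7 of 10 and lower in 1 (Cd163 0.73), and fibroblast genes lower in 5 of 11 and higher in 1 (Pi16 -1.44). The part of these lists in the members' atrial differences was not tested.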

How the data were processed

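Total RNA from both atria of 16 mice was labelled from 100 ng and hybridised to 32 Affymetrix Mouse Gene 1.0 ST arrays. The authors deposited 1 value per probe set and array, made with Affymetrix Expression Console and PLIER per the submitters' processing notes, with no version given in the sources used here. The deposited values run from 1.16 to 14.08 and were read as log2 from that range. Array medians lay between 5.51 and 5.68. No depth applies to arrays, and their number limits the precision.

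Of 35512 probe sets, 21789 name 1 gene in GEO's platform annotation, 1621 several and 12102 none, and only the first were used. The brightest probe set stood for a gene, and genes with a mean above the 30th percentile (4.48) were kept, leaving 15219. Symbols were checked through Entrez identifiers against RefSeq, which updated 0. The 2 arrays of an animal were averaged, and the 4 genotypes were compared with limma 3.58.1 in R 4.3.3 (lmFit, eBayes with trend), two-sided, with Benjamini-Hochberg adjustment over all genes tested. Differences between atria were taken within animals, so the animal is the block. The labels give both arrays of an animal its number, and after removal of the group means the correlation within pairs ran from -0.01 to 0.44 (median 0.22), over 0.1 in 12 of 16 animals. The p-values cover only how these 16 animals vary. The scripts were tested on simulated data.

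The members and the 20 lists (214 genes, 199 tested) were chosen with earlier results of these data known. The text names all members, up to 4 called genes of a list with the largest change, Stk4, Pik3ca and Bmp10, and the genes most like the members. Alternatives were no filter, quantile scaling, arrays centred on their median, all probe sets of a gene, eBayes without trend, array weights, all 32 arrays with the animal as a random block, arrays of 1 labelled side, no replicate block, and each animal left out. Leaving out the 4 animals whose arrays stood apart was chosen after seeing the data.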

Additional observations from a re-analysis of the deposited data

Results flagged for a closer look

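Among groups of 4 animals or arrays, a value was singled out where its gap to the nearest of the others, as a share of the group's range, exceeded Dixon's 95% critical value. This held for 6 of 120 groups of the 10 genes, and chance gives about 1 in 20 groups, or 6. Mst1 1466 accounted for 3 of them: Kdr stood at 8.06 in its Bmp10-high array (the others 9.07 to 9.26), Vwf at 9.47 in the same array (10.64 to 10.87), and Eng at 10.45 on its mean of both arrays (11.06 to 11.10). That array also had the lowest mean correlation with the others (0.949). The other 3 were Flt1 at 8.83 in the Bmp10-low array of dnPI3K-Mst1 1509 (8.38 to 8.41), Tek at 9.28 in the Bmp10-high array of dnPI3K-Mst1 1650 (9.47 to 9.48) and Tie1 at 8.23 on the mean of Mst1 1838 (8.08 to 8.10).

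The Flt1 difference between an animal's Bmp10-high and Bmp10-low arrays was 0.70 larger in dnPI3K-Mst1 than in dnPI3K by limma's test of that difference (adjusted p = 0.026). It was the 1 member of 10 called in the 5 comparisons of the atrial difference between genotypes.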

How the results depend on the processing

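The precision was limited by 4 animals a genotype, and the side labels disagreed with Bmp10 in most animals. Over all members, comparisons and settings, 4812 values kept their direction and side of the threshold, 147 lost and 57 gained a call, 139 changed sign without a call on either side and 5 called values reversed. The reversed values were Flt1 in dnPI3K-Mst1 against dnPI3K on arrays labelled left (0.024) and, with labelled right minus left in place of Bmp10, Flt1 (-0.12), Tek (-0.24), Eng (-0.059) and Vwf (-0.25). In dnPI3K and in dnPI3K-Mst1 the array labelled left was the Bmp10-high array in 4 of 4 animals. The Flt1 value on arrays labelled left is therefore the one of the Bmp10-high arrays (0.024). Right minus left was Bmp10-low minus Bmp10-high in 13 of 16 animals, so its sign is turned by definition in those. In the other 3 it was Bmp10-high minus Bmp10-low, and no cause beyond this was tested.

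Counts of members called moved as follows. On arrays labelled left, Mst1 against Ntg gave 3 (6 on the animal means), dnPI3K-Mst1 against Ntg 3 (5), against Mst1 0 (5) and against dnPI3K 1 (3), and on arrays labelled right dnPI3K-Mst1 against Mst1 gave 0. The left-labelled array was Bmp10-high in 2 of 4 Ntg, 3 of 4 Mst1 and 4 of 4 animals of each other genotype. Comparisons with Ntg or Mst1 on 1 labelled side therefore mix genotype with atrium. dnPI3K against Ntg (0) gave 1, Eng, with quantile scaling, array weights or without the 4 animals whose arrays stood apart. Without those 4 animals it gave 1 in the Bmp10-high (0) and 0 in the Bmp10-low arrays (2). dnPI3K-Mst1 against Mst1 gave 1 with quantile scaling in the Bmp10-high arrays (0) and 2 with centred arrays in the Bmp10-low arrays (6). The non-additivity term (0) gave 2 with array weights and 1 with all 32 arrays and a random block. Without the replicate block, Bmp10-high minus Bmp10-low gave 2 (4) and its difference between dnPI3K-Mst1 and dnPI3K 0 (1), as did centred arrays and the fit without the 4 animals. Labelled right minus left gave 0.

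Leaving out 1 animal gave these lowest and highest counts. Animal means gave 5 to 7 for Mst1 against Ntg, 0 to 1 for dnPI3K against Ntg, 4 to 5 for dnPI3K-Mst1 against Ntg and against Mst1, 1 to 4 against dnPI3K and 0 to 2 for non-additivity. In the same order the Bmp10-high arrays gave 1 to 4, 0 to 0, 1 to 3, 0 to 1 and 1 to 2, and the Bmp10-low arrays 5 to 7, 1 to 3, 5 to 6, 0 to 6 and 2 to 3. Bmp10-high minus Bmp10-low gave 2 to 5, its dnPI3K-Mst1 against dnPI3K difference 0 to 1 and its other differences 0 to 0. With centred arrays 1898 of 4441 genes called in dnPI3K-Mst1 against Ntg were higher, in place of 2503 of 4658, and 100 of 230 in place of 243 of 388 in dnPI3K-Mst1 against Mst1 on Bmp10-low arrays. With quantile scaling 294 of 696 were higher in dnPI3K against Ntg, in place of 197 of 616.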

Other observations

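Lymphatic endothelium was not described above in the genotype comparisons. Of its 6 genes tested, 2 were higher and 1 lower in Mst1 against Ntg (12.6% and 14.2% of all genes), with Mmrn1, a multimerin of the lymphatic and platelet matrix, higher by 1.62. With both transgenes 4 of the 6 were higher and 0 lower (16.4% and 14.2% of all genes).

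The genes whose animal means followed the members most closely were Map4k4, Srgap2, Arap3 and Fzd6, with Pearson r of 0.92 each to the mean z-score of the 10 members over the 16 animals, then Ttc28, Taok2 and Agrn (0.91) and Pde3a (0.90). On deviations from the genotype means the closest were Ndrg1, Ephb4 and Nid2 (0.92), Dab2ip, Galnt2, Arap3 and H6pd (0.91) and Sema4c (0.90). These 16 points share the arrays and the genotypes, and the values are a description of which genes rank highest. Over the animal means the members followed each other unevenly. The r of a member to the mean z-score of the other members was lowest for Vwf (0.29), Emcn (0.37) and Eng (0.47) and highest for Tie1 (0.86).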
